A study of Mus musculus with 17 samples.

Results

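The genes of the motile cilium axoneme were taken as every row of the mouse lung count table whose symbol begins with Dnah, Cfap, Rsph or Tekt followed by a digit, which gave 60 of the 45777 genes. They comprised 15 Dnah, 33 Cfap, 7 Rsph and 5 Tekt genes. The rule used names only and no measured value. The lungs came from male wild-type C57BL/6 mice that were 6 weeks old on arrival and were acclimatised before the left lung received a single fraction of 65 or 75 Gy from an image-guided small-animal irradiator. Tissue was collected after 2 weeks or 6 weeks and compared with non-irradiated lungs of the same time, which gave 17 libraries in 6 groups: con_2w, 65Gy_2w, 75Gy_2w, con_6w and 75Gy_6w with 3 libraries each and 65Gy_6w with 2. RNA of the irradiated lungs was taken from the lesions, which the control lungs did not have, so the choice of tissue and the radiation cannot be told apart. The comparisons asked how the axoneme genes stood in the injured lung at the inflammatory time point of 2 weeks and the fibrotic time point of 6 weeks, at both doses.

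Motile cilia cover the multiciliated cells of the conducting airways, whose beating clears mucus from the lung. The core of the cilium, the axoneme, is a ring of microtubule doublets around a central pair of microtubules. Dynein arms fixed to each doublet pull on the next doublet, and each arm is built around heavy chains, the motor proteins that the Dnah genes encode. Radial spoke proteins (Rsph) pass signals from the central pair to the arms, tektins (Tekt) are filaments inside the doublets, and Cfap genes encode proteins of many places in the cilium and flagellum. The RFX factors and FOXJ1 switch these genes on during ciliogenesis, and the geminin-like protein MCIDAS acts above them when a cell commits to making many cilia.

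RFX factors recognise the X-box, of which GTTGCC is a core part, so the stretches before the start of these genes were read from RefSeq promoter windows (GRCm38.p6, 250 bases before to 50 bases after each start). Of the 60 genes, 50 matched a window by gene identifier. GTTGCC, searched on both strands, was present in 18 of the 50 (36%) and in 14.1% of the 27025 genes with a window. A longer X-box pattern with both of its arms, which can overlap the former, was present in 7 of 50 (14%) against 2.49% of all genes. The forkhead pattern GTAAACA, of the class bound by FOXJ1, was present in 4 of 50 (8%) against 4.05%. A match is a description of these letters and not of a bound site. The 5 genes printed here are those with GTTGCC before the start among the 14 matched genes that passed an adjusted p of 0.05 in a comparison with controls, and their levels are described in what follows. Each is printed on the strand of its gene, 5′ to 3′, and capitals mark GTTGCC or its reverse complement. The window of Dnah10 lies at chr5:124725035-124725084 on the plus strand, those of Cfap298 at chr16:90934874-90934939, Cfap300 at chr9:8042962-8043027, Tekt1 at chr11:72361883-72361927 and Tekt2 at chr4:126325689-126325740 on the minus strand.
Dnah10: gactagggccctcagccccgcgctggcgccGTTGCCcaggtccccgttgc
Cfap298: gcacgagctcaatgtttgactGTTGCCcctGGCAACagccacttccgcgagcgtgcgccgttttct
Cfap300: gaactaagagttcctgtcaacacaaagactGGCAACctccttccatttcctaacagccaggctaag
Tekt1: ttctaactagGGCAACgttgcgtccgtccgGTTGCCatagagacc
Tekt2: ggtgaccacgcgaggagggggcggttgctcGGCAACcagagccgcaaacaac
The marked letters ended 14 bases before the start in Dnah10, 9 in Tekt1 and 16 in Tekt2. The start used for Tekt1 is internal to the annotated gene span of 72344717 to 72362442, and is 1 of 2 starts with a window. In Cfap298 the marked pair read as an inverted repeat with its last base 54 bases before the start, and in Cfap300 the match ended 116 bases before it.

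Libraries held between 46764569 and 66797879 counts. Levels are given as CPM, counts scaled by the TMM-adjusted library size. All libraries held the genes that mark ciliated cells: Foxj1, the factor that drives motile ciliogenesis, lay between 76.9 and 160 CPM, and Scgb1a1, which marks club cells of the same airways, between 5310 and 17200 CPM. The summed level of 6 male germ cell markers was at most 0.839 CPM in any library, with Tnp1 at 0 throughout, a list that stands for the testis, where many of the same axoneme genes serve the sperm tail. Airway genes differed between libraries of the same group: Muc5b, the main mucin of the conducting airways, was 17.7, 407 and 34.4 CPM in con_2w and 160, 64.2 and 366 CPM in con_6w. In bulk tissue of this kind, fewer ciliated cells and less RNA per cell cannot be told apart.

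The level per length of the 60 genes spanned several orders. Per kilobase of exon and over all 17 libraries, Rsph1 of the spoke head had the highest mean level at 18.7 CPM. It was followed by Cfap298, a cytoplasmic factor for dynein assembly, at 14.9, Cfap36 at 14.6, and Cfap126, a protein inside the doublet also known as Flattop, at 14.2 CPM per kilobase. Cfap65 of the central pair had the most counts of the Cfap genes and 11.7 CPM per kilobase, ahead of Cfap43 (8.36) and Cfap44 (6.34), both of the base of the inner arms. Among heavy chains the inner arm genes Dnah6 (5.83) and Dnah3 (4.23) and the outer arm gene Dnah5 (4.4) had the most counts. Dnah9 (2.34) and Dnah11 (1.98), the other outer arm heavy chains of airway cilia, were lower per kilobase. Dnah8 (0.298) and Dnah17 (0.049), the outer arm heavy chains known from sperm, were at the low end. Among the spoke genes with the most counts, Rsph3a had 9.49 and Rsph4a 7.23 CPM per kilobase, and Tekt1 (8.37), Tekt4 (5.28) and Tekt2 (5.26) led the tektins. By their names Dnah7a, Dnah7b and Dnah7c are related copies, as are Rsph3a and Rsph3b, but their sequences were not compared here. Reads shared by such copies could have been split in counting, so each is uncertain on its own. Cfap97d1 had 0 counts in every library, which allows at most 0.0443 to 0.0642 CPM by counting error (a floor of 3 counts per library). Rsph6a, a spoke gene known from testis, had 7 counts in all, 5 of them in 1 library of 75Gy_2w. The remaining 58 genes passed the filter on low counts that left 22052 genes tested.

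Summed over the 60 genes, the level was 943, 1430 and 989 CPM in con_2w, 1010, 1380 and 1360 in 65Gy_2w, and 941, 1340 and 1080 in 75Gy_2w. At 6 weeks it was 1390, 1340 and 1570 CPM in con_6w, 1550 and 1400 in 65Gy_6w, and 1150, 1310 and 1620 in 75Gy_6w. Irradiated and control libraries overlapped at each time and dose, and at 2 weeks the spread within a group was as wide as that between groups. The heavy chains made up 31.7% to 38.1% of the sum in con_2w, 33% to 40.3% in 65Gy_2w, 33.2% to 38.2% in 75Gy_2w and 35.3% to 38.9% in con_6w. Their share was 36% and 30.8% in 65Gy_6w. In 75Gy_6w it was 29.9%, 28.4% and 29.6%, lower than in each of the other 14 libraries. Over the whole table, genes of at least 10000 exon bases were also lowest there relative to genes under 2000 bases. Their median log2 deviation from each gene's mean differed by -0.279, -0.409 and -0.495 from that of the short genes. The part of exon length in the heavy chain share was not tested.

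**Figure D1:**
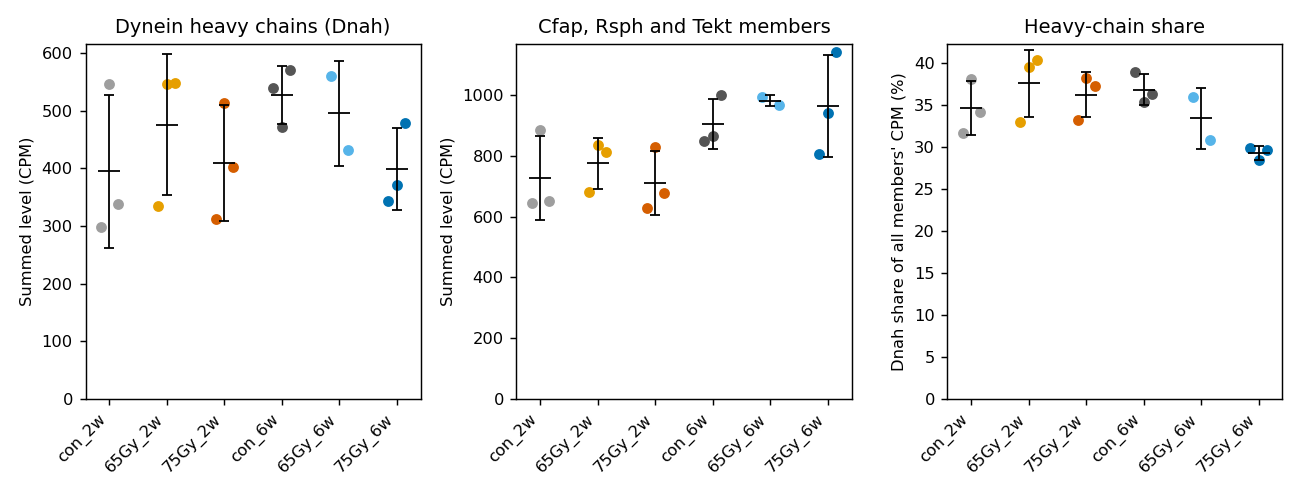
Summed level in CPM of the Dnah genes (left) and of the Cfap, Rsph and Tekt genes (middle), and the Dnah share of the total in percent (right), for each library (points) with the mean and SD of each group (bars; n = 3, or 2 for 65Gy_6w). The sums overlap between groups, while the 3 libraries of 75Gy_6w lie at 28.4% to 29.9% in the share, under all others. The part of exon length in the share was not tested.

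At 2 weeks after 65 Gy, no axoneme gene passed both limits used to call a gene in the edgeR quasi-likelihood test (a Benjamini-Hochberg adjusted p up to 0.05 together with a change of 1 or more on the log2 scale, up or down), while 4.35% of all genes tested did, 3.47% higher and 0.88% lower. None passed by adjusted p alone either, beside 6.7% of all genes higher and 4.29% lower. The groups did not overlap in 2 genes upward and 1 downward, beside 15.9% and 13.5% of all genes. At an unadjusted p under 0.05 there were 2 of 58, against 25.4% of all genes, and DESeq2 and edgeR's exact test called 1 each, the sparsely counted Dnah14. That gene passed the filter on low counts only through irradiated libraries, so its calls are a description. The median log2 fold change over the 58 genes was 0.13, beside -0.01 over all genes, and 41 were above 0. It was 0.32 without the con_2w library 3127, which had the highest axoneme sum and Muc5b level of its group. At the ends of the list stood Dnah14 (2.82), Dnah17 (0.67, adjusted p = 0.166) and Cfap97d2 (0.46, adjusted p = 0.376), and Dnah8 (-0.29, adjusted p = 0.288), Tekt5 (-0.27, adjusted p = 0.577) and Tekt2 (-0.16, adjusted p = 0.538). The outer arm genes of airway cilia had log2 fold changes of 0.42 (Dnah5, 95% interval -0.23 to 1.08), 0.32 (Dnah9, -0.23 to 0.88) and 0.34 (Dnah11, -0.13 to 0.80).

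At 2 weeks after 75 Gy, again none was called by edgeR's quasi-likelihood test, against 7.74% of all genes (5.67% higher and 2.07% lower). By unadjusted p under 0.05 there were 5, against 35% of all genes, and DESeq2 and the exact test called 1 each, again Dnah14 and again a description only. The median log2 fold change was -0.01, beside 0.00 over all genes, with 28 genes above 0 and 30 below. By adjusted p alone, which 11.8% of all genes passed upward and 10.5% downward, 1 axoneme gene rose and 1 fell. Tekt2, a tektin filament protein inside the doublets, was 9.09, 11.1 and 9.63 CPM in con_2w and 6.13, 8.11 and 6.72 CPM in 75Gy_2w. All 3 irradiated libraries lay under the controls, with a change of -0.51 on the log2 scale (SE 0.14, adjusted p = 0.0166 by edgeR's quasi-likelihood test), which was lost in 2 of the 6 fits that left out a library. The gene lies at chr4:126322121-126325688 in GRCm38. Cfap53, which binds inside the doublets near the docking site of the outer arms, was 8.52, 8.71 and 7.34 CPM in con_2w and 10.4, 12.9 and 10.7 CPM in 75Gy_2w. The irradiated libraries were all higher, with a log2 difference of 0.47 (SE 0.16, adjusted p = 0.0492), which passed in 1 of the 6 fits that left out a library. All 5 tektins were below 0 at this dose and time, from -0.51 to -0.08, of which only Tekt2 passed. Dnah8 (-0.41, adjusted p = 0.0885) and Cfap69 (-0.36, adjusted p = 0.142) were the next lowest, and Dnah17 (0.35, adjusted p = 0.433) the third from the top.

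**Figure D2:**
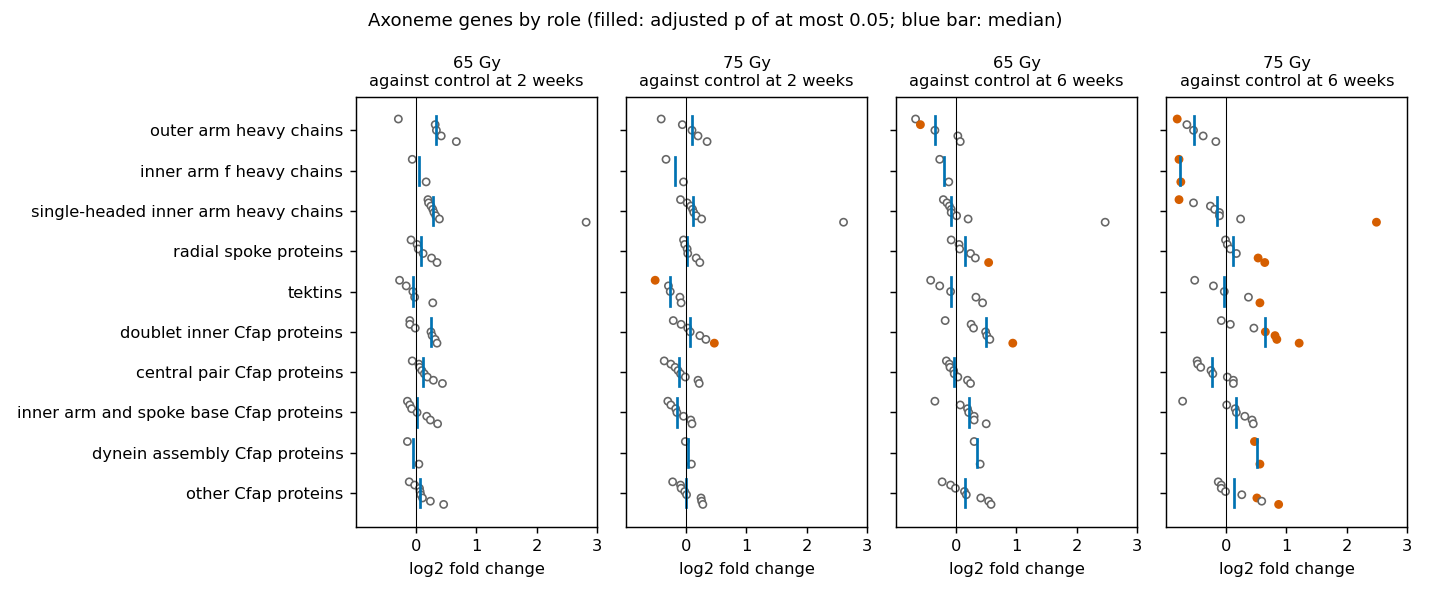
Log2 fold change of the 58 genes tested against controls of the same time, 1 point a gene, grouped by role in the axoneme, for both doses at 2 and 6 weeks. Filled points have an adjusted p of at most 0.05 and blue bars are group medians. At 75 Gy and 6 weeks the outer and inner arm f heavy chains lie to the left (medians -0.54 and -0.77) and the doublet inner Cfap genes to the right (0.65).

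At 6 weeks after 65 Gy none was called by edgeR's quasi-likelihood test, against 5.28% of all genes (4.34% higher and 0.943% lower), and 12 of 58 had an unadjusted p under 0.05, against 29.4%. DESeq2 called 1 (Dnah14, a description only) and the exact test 0, while without the con_6w library 3135 the main test called 1. The median log2 fold change was 0.07, beside 0.01 over all genes. Groups did not overlap in 19 genes upward and 7 downward, beside 28.2% and 28.1% of all genes. By adjusted p alone, Cfap53 and Rsph9 rose and Dnah8 fell, that is 2 of 58 upward against 7.66% of all genes and 1 downward against 7.01%. Cfap53 was 8.79, 9.65 and 8.9 CPM in con_6w and 17.3 and 17.6 CPM in 65Gy_6w. Both irradiated libraries were well above all controls, with a log2 difference of 0.94 (SE 0.18, adjusted p = 0.00342). Rsph9, a protein of the spoke head, was 10.4, 10.6 and 11.1 CPM in con_6w and 15.5 CPM in both irradiated libraries, which is 0.54 higher on the log2 scale (SE 0.17, adjusted p = 0.0427). Dnah8 was 11.2, 9 and 8.17 CPM in con_6w and 6.7 and 5.89 CPM in 65Gy_6w, a difference of -0.59 (SE 0.19, adjusted p = 0.046). The last 2 calls were the less stable: Rsph9 kept an adjusted p of at most 0.05 in none of the 5 fits that left out a library and Dnah8 in 1. Outside these, Dnah17 (-0.67, adjusted p = 0.196), Tekt3 (-0.42, adjusted p = 0.558) and Cfap97d2 (0.58, adjusted p = 0.261) were at the ends of the list.

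At 6 weeks after 75 Gy more axoneme genes passed by adjusted p than in any other comparison with controls. The same held for the whole table, where 36% of all genes passed, beside 27.6% of the axoneme genes. Those that passed ran in opposite directions for different parts of the axoneme, a split that moved with exon length. With the exon-length offsets described below, the heavy chain median was 0.03 and no heavy chain passed downward. The spoke, tektin and dynein assembly genes that rose in the main fit did not pass with them either. Of the 58 genes, 2 were called, Cfap53 and Dnah14, both higher, against 10.4% of all genes (7.28% higher and 3.13% lower). Dnah14 passed the filter on low counts only through irradiated libraries. At an unadjusted p under 0.05 there were 22, against 45.6% of all genes. The median log2 fold change was 0.01, beside 0.04 over all genes. By adjusted p alone, 12 rose and 4 fell, which is 20.7% and 6.9% of the axoneme genes beside 18% of all genes in each direction. The 4 that fell were all heavy chains, and 11 of the 12 that rose were Cfap, Rsph or Tekt genes, the exception being Dnah14. Libraries of the groups did not overlap in 11 genes upward and 11 downward, or 19% each, beside 29.4% and 27.7% of all genes.

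The Cfap genes for proteins inside the doublets had the highest median of the roles at this dose and time, while the tektins, which also lie there, had a median of -0.03. Of the 7 Cfap genes, 6 were above 0 with a median log2 fold change of 0.65, and 4 rose by adjusted p, where 18% of all genes rose. Cfap53 was 15.3, 22.8 and 24.9 CPM in 75Gy_6w, every library above the controls at 8.79 to 9.65 CPM. Its log2 fold change was 1.21 (SE 0.16, adjusted p = 9.54e-05), a 2.31-fold rise, and it was called in all 6 fits that left out a library. Cfap126 was 19.7, 23.1 and 24.6 CPM in con_6w and 31.2, 36.6 and 52.8 CPM in 75Gy_6w. No library overlapped, and the difference was 0.84 (SE 0.18, adjusted p = 0.00245) at chr1:171113912-171126956. Cfap52 went from 12.9, 13.2 and 17.1 CPM to 17.7, 24.8 and 33.3 CPM, 0.81 higher on the log2 scale (SE 0.20, adjusted p = 0.00589), and Cfap45 had 0.65 (SE 0.18, adjusted p = 0.0103). Cfap20, which closes the inner junction of the doublet and is also made by cells without motile cilia, had -0.08 and did not pass. Of 14 further genes of doublet inner proteins, 13 were above 0 and 4 rose, beside the same 18% of all genes, with a median of 0.51. Among them were Nme7 (0.79, SE 0.13, adjusted p = 0.000512) and Nme5 (0.89, SE 0.22, adjusted p = 0.00601). Values with exon-length offsets are not given for these 14.

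By adjusted p, smaller rises were found in 2 of 6 spoke genes, 1 of 5 tektins and both dynein assembly genes. Of all genes, 18% rose, so the count of tektins is near the share of all genes. The median log2 fold change was 0.12 over the spokes and -0.03 over the tektins. Rsph9 was 13.6, 15.2 and 21.2 CPM in 75Gy_6w, above the 10.4 to 11.1 CPM of the controls, 0.64 higher on the log2 scale (SE 0.15, adjusted p = 0.00463), and it passed in all 6 fits without a library (gene at chr17:46122038-46144242). Rsph1 rose by 0.53 (SE 0.18, adjusted p = 0.036), although its groups overlapped and without the 75Gy_6w library 3143 it had 0.29 (adjusted p = 0.207), while the stalk gene Rsph3a (0.07) and Rsph4a (0.17) did not pass. Among 5 tektins only Tekt1 rose, from 11.6, 12.1 and 13.5 CPM to 14.9, 16.9 and 23 CPM, a difference of 0.56 (SE 0.16, adjusted p = 0.0117). Tekt5 had -0.52 (adjusted p = 0.14) and Tekt2 -0.21 (adjusted p = 0.246). Both dynein assembly genes rose, Cfap298 by 0.47 (SE 0.12, adjusted p = 0.00778) and Cfap300 by 0.56 (SE 0.19, adjusted p = 0.0304). Cfap299 (0.87, SE 0.23, adjusted p = 0.0086) and Cfap36 (0.51, SE 0.15, adjusted p = 0.0169) were the other Cfap genes that rose. Cfap36 and Cfap300 lost an adjusted p of 0.05 in 4 of the 6 fits without a library, and Cfap299, Cfap45 and Tekt1 in 1. With the exon-length offsets described below, Rsph9, Rsph1, Tekt1, Cfap298, Cfap300 and Cfap36 did not pass, while Cfap299 did.

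Of the 15 heavy chain genes, 13 were below 0 at 6 weeks after 75 Gy, with a median log2 fold change of -0.38. All 5 outer arm genes were negative, with Dnah8 at -0.81 (SE 0.17, adjusted p = 0.00171) the single gene of them that passed. Dnah8 was 11.2, 9 and 8.17 CPM in con_6w and 6.56, 4.79 and 4.78 CPM in 75Gy_6w, with no overlap, and passed in all 6 fits without a library (gene at chr17:30626935-30875762). The airway outer arm genes Dnah11 (-0.54, adjusted p = 0.0667), Dnah9 (-0.38, adjusted p = 0.274) and Dnah5 (-0.17, adjusted p = 0.696) did not pass. Dnah5 was 81.4, 63.3 and 90.7 CPM in con_6w and 55.6, 56.4 and 97.2 CPM in 75Gy_6w, so the groups overlapped, and the 95% interval of its difference ran from -0.82 to 0.48. Both heavy chains of inner arm f fell. Dnah10 was 59.6, 55.3 and 66.3 CPM in con_6w and 35, 32.3 and 38.1 CPM in 75Gy_6w, a difference of -0.78 (SE 0.24, adjusted p = 0.019). Dnah2 was 31.2, 28.7 and 33.4 CPM against 17.9, 18.7 and 18.8 CPM, a difference of -0.75 (SE 0.26, adjusted p = 0.033). The irradiated libraries of both genes lay close together and under all controls of 6 weeks. In con_2w Dnah10 was 36.1, 68.5 and 44.9 CPM and Dnah2 17.7, 40.8 and 26.4 CPM, so the 75Gy_6w libraries were within that range for Dnah2, and for Dnah10 2 of 3 lay under it. The single-headed inner arm gene Dnah1 fell as well (-0.78, SE 0.26, adjusted p = 0.0305). Dnah2 and Dnah1 lost an adjusted p of 0.05 in each of the 6 fits without a library, and Dnah10 in 2. Central pair Cfap genes had a median of -0.24 and none passed, with Cfap65 at -0.47 (adjusted p = 0.116). Cfap44 of the inner arm base had -0.72 (adjusted p = 0.0559), and Cfap43 of the same complex 0.15 (adjusted p = 0.661).

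**Figure D3:**
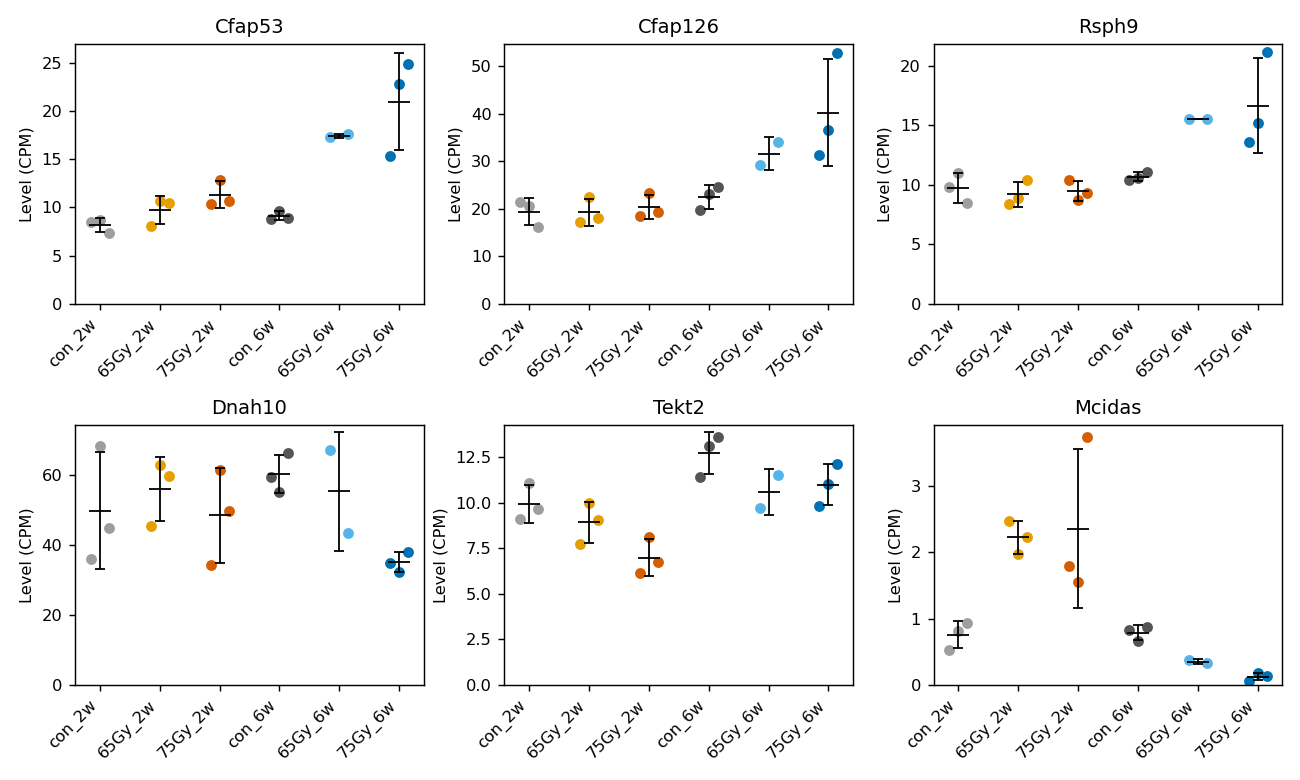
Level in CPM of 5 axoneme genes and of the regulator Mcidas in each library (points), with the mean and SD of each group (bars; n = 3, or 2 for 65Gy_6w). Cfap53 reaches 15.3 to 24.9 CPM in 75Gy_6w against 8.79 to 9.65 CPM in con_6w, Dnah10 lies at 32.3 to 38.1 CPM against 55.3 to 66.3 CPM, and Mcidas is high in both irradiated groups of 2 weeks and lowest in 75Gy_6w.

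Dnah14, an inner arm heavy chain with 247 counts in all libraries together (chr1:181576593-181814932), was sparse. It had 0, 5 and 3 counts in con_2w and 10, 0 and 0 in con_6w. In the irradiated lungs it had 16, 38 and 18 counts in 65Gy_2w, 12, 31 and 20 in 75Gy_2w, 19 and 19 in 65Gy_6w, and 22, 14 and 20 in 75Gy_6w. Each of the 11 irradiated libraries thus held more counts than every control library. None of the 6 control libraries reached the filter's cut of 0.174 CPM and all 11 irradiated ones did, so the gene entered the tests through the groups in which it is high, and its values here and its calls by DESeq2 and the exact test are a description. The log2 fold changes were 2.82 (SE 0.92, adjusted p = 0.0639) and 2.61 (SE 0.93, adjusted p = 0.0566) at 2 weeks after 65 and 75 Gy, and 2.47 (SE 0.96, adjusted p = 0.101) and 2.49 (SE 0.90, adjusted p = 0.0425) at 6 weeks. At 75 Gy and 6 weeks the call was lost in 5 of the 6 fits without a library, and without the con_6w library 3135, which held all 10 control counts of that time, the fitted value was 7.23 against libraries at 0 and is no measure of size. With only the libraries compared its adjusted p was 0.0555. The macrophage markers Adgre1, Cd68, Marco and Mrc1 summed to 137 to 209 CPM in the control libraries and 459 to 784 CPM in the irradiated ones, and so were also higher in all 11. Their part in the Dnah14 counts was not tested.

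The split between heavy chains and the shorter genes moved with exon length. The union of exons was 12009 to 26820 bases in the 15 heavy chain genes and had a median of 3014 bases in the 43 others. Across the 58 genes, Spearman's rho of the 75 Gy log2 fold change at 6 weeks with exon length was -0.59, as a description over genes that share libraries. It was -0.45 over the 43 other genes and -0.32 over the 19586 genes of the table with a length. Genes of the whole table with at least 10000 exon bases that are no axoneme genes had a median log2 fold change of -0.33 (74.7% below 0), near the median of -0.38 of the heavy chains. Genes under 2000 exon bases had a median of 0.34, and the 13 axoneme genes of that length 0.47. At 65 Gy the rho over axoneme genes was -0.47 at 6 weeks but 0.5 at 2 weeks, where all genes had -0.02. With library offsets that remove the trend of level over exon length, the heavy chain median at 75 Gy and 6 weeks went from -0.38 to 0.03, with 8 above and 7 below 0. None of the 4 heavy chains that fell passed any longer: Dnah8 had -0.28 (adjusted p = 0.141), Dnah10 -0.37 (adjusted p = 0.154), Dnah2 -0.37 (adjusted p = 0.197) and Dnah1 -0.43 (adjusted p = 0.156). The doublet inner genes Cfap53 (1.06, adjusted p = 0.000263), Cfap45 (0.74, adjusted p = 0.00531), Cfap52 (0.63, adjusted p = 0.0227) and Cfap126 (0.60, adjusted p = 0.0148) passed in that fit too, as did Cfap299 (0.59, adjusted p = 0.0403). Dnah14 passed as well (2.90, adjusted p = 0.0198), but it entered the tests only through irradiated libraries, so this is a description. Rsph9 (0.38, adjusted p = 0.05 after rounding, just past the limit), Rsph1, Tekt1, Cfap298, Cfap300 and Cfap36 did not pass in it. Of the genes at this dose and time, Tekt2 (-0.43, adjusted p = 0.0361), Tekt5 (-0.74, adjusted p = 0.048) and Dnah7c (0.58, adjusted p = 0.0293) passed there and not in the main fit. In all, 7 of the 58 axoneme genes passed upward and 2 downward in that fit, beside 3538 and 3651 of the 22052 genes tested. At 2 weeks after 75 Gy, Tekt2 had -0.59 in it (adjusted p = 0.0101), Cfap53 0.41 (adjusted p = 0.079) and Dnah14, as a description only, 2.76 (adjusted p = 0.0391). There 1 axoneme gene passed upward and 1 downward, beside 2639 and 2287 of all genes. At 6 weeks after 65 Gy Cfap53 was 0.84 higher (adjusted p = 0.00627), and Rsph9 (adjusted p = 0.122) and Dnah8 (adjusted p = 0.365) did not pass. That was 1 axoneme gene upward and 0 downward, beside 1532 and 1256 of all genes.

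**Figure D4:**
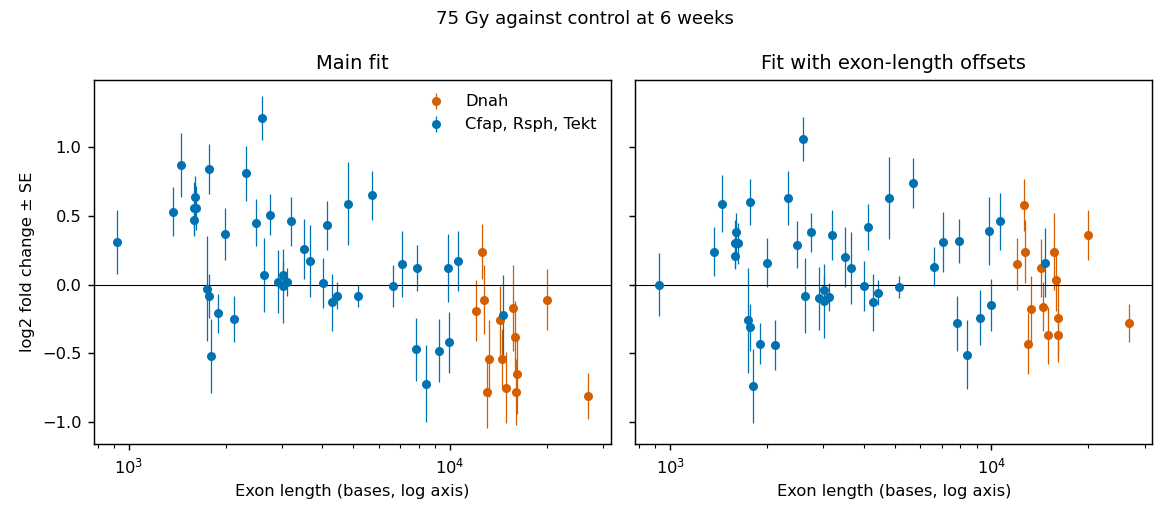
Log2 fold change with its SE at 75 Gy and 6 weeks against exon length in bases (log axis) for 57 axoneme genes (Dnah14, of 247 counts, is left out), in the main fit (left) and in the fit with exon-length offsets (right). In the main fit the heavy chains, all longer than 12000 bases, lie mostly under 0, and with the offsets they lie on both sides of it, while Cfap53 stays at 1.06.

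Doses and times were also compared with each other. Between 75 and 65 Gy edgeR's quasi-likelihood test called 0 axoneme genes at 2 weeks and 0 at 6 weeks, and 0% of all genes, with 1 and 2 axoneme genes at an unadjusted p under 0.05, against 7.12% and 6.49% of all genes. Groups did not overlap in 1 gene downward at 2 weeks, beside 5.95% of all genes, and in 8 at 6 weeks, beside 15.3%. DESeq2 and the exact test called none of them. At 2 weeks 45 of the 58 were lower at 75 than at 65 Gy, with a median log2 difference of -0.17, which was -0.04 without the 75Gy_2w library 3132 and -0.31 without 3133. The largest dose difference at 6 weeks was that of Dnah10, -0.66, whose libraries in 65Gy_6w were 67.4 and 43.4 CPM (adjusted p = 0.735). Controls of 6 weeks stood above controls of 2 weeks in 55 of 58 genes, with a median of 0.34 beside 0.01 for all genes. No axoneme gene was called there by the quasi-likelihood test, DESeq2 or the exact test, against 0.576% of all genes by the first, and 12 had an unadjusted p under 0.05, against 15.5%. Groups did not overlap in 11 genes upward and 0 downward, beside 12.4% and 11.2% of all genes. That median was 0.53 without con_2w library 3127 and 0.25 without 3128. The difference between the 6-week and 2-week effects of 75 Gy was called for 0 axoneme genes, against 0.254% of all genes, with 12 at an unadjusted p under 0.05, against 16.1%. The same contrast at 65 Gy was called for 0, against 0.0136%, with 4 at an unadjusted p under 0.05, against 8.65%, and DESeq2 called 0 in both.

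Among 14 genes that control multiciliation, Mcidas and Foxn4 were called higher at 2 weeks after both doses, and Mcidas alone was called, lower, at 6 weeks after 75 Gy. By adjusted p, 3 rose and 0 fell at 2 weeks after 65 Gy, where 6.7% of all genes rose and 4.29% fell. After 75 Gy at 2 weeks 4 rose and 1 fell, beside 11.8% and 10.5% of all genes. At 6 weeks after 75 Gy 1 rose and 4 fell, beside 18% of all genes each way, and none passed at 65 Gy. Mcidas (chr13:112993581-113000394), a regulator of the multiciliated programme, was 0.528, 0.814 and 0.934 CPM in con_2w, 2.47, 1.97 and 2.23 CPM in 65Gy_2w, and 1.79, 1.55 and 3.73 CPM in 75Gy_2w. Every irradiated library of 2 weeks was above all controls, with log2 fold changes of 1.55 (SE 0.34, adjusted p = 0.00911) and 1.63 (SE 0.34, adjusted p = 0.00317) after 65 and 75 Gy. The second had an adjusted p of 0.0586 with only the libraries compared. At 6 weeks Mcidas was 0.827, 0.66 and 0.873 CPM in con_6w, 0.379 and 0.324 CPM in 65Gy_6w, and 0.0656, 0.177 and 0.128 CPM in 75Gy_6w. All 5 irradiated libraries were under the controls, with a log2 fold change of -2.66 at 75 Gy (SE 0.41, adjusted p = 0.00025) and of -1.16 at 65 Gy (adjusted p = 0.0723). The 75 Gy effect at 6 weeks differed from that at 2 weeks by -4.29 on the log2 scale (SE 0.53, adjusted p = 0.00559), and this was called in all 12 fits without a library. Its size is uncertain, because the lowest 75Gy_6w level of 0.0656 CPM was close to the counting floor of 0.0443 to 0.0642 CPM. Foxn4, a forkhead gene that acts with Mcidas in multiciliated cells, rose at 2 weeks, by 1.95 after 65 Gy (SE 0.48, adjusted p = 0.0186) and by 1.80 after 75 Gy (SE 0.48, adjusted p = 0.0148). The 65 Gy call was lost without the con_2w libraries 3126 or 3127 or the 65Gy_2w library 3129, with adjusted p up to 0.0622. It was 0.345, 0.514 and 0.725 CPM in con_2w and 0.56, 1.34 and 3.64 CPM in 75Gy_2w, and without library 3134 of the last group its log2 fold change was 0.85 (adjusted p = 0.122). With only the libraries compared its adjusted p after 75 Gy was 0.141. Rfx2, a factor of the X-box family, fell after 75 Gy at 2 weeks (-0.55, SE 0.14, adjusted p = 0.00916) and at 6 weeks (-0.43, SE 0.13, adjusted p = 0.0206). Plk4, a kinase of centriole duplication, was also higher at 2 weeks after 75 Gy (0.74, SE 0.14, adjusted p = 0.00175), and the cell cycle factor E2f4 lower at 6 weeks (-0.45, SE 0.10, adjusted p = 0.00414). Foxj1 did not pass in any of the 4 comparisons, with 0.61 (adjusted p = 0.0576) and 0.46 (adjusted p = 0.0648) at 6 weeks after 65 and 75 Gy.

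Most markers of ciliated cells rose at 6 weeks after 75 Gy, and 2 of 8 secretory markers fell, where 18% of all genes fell. Of 10 ciliated cell markers, 9 were above 0 and 8 rose at 6 weeks after 75 Gy, where 18% of all genes rose, with a median log2 fold change of 0.79, and Dynlrb2 (1.03, adjusted p = 0.0022), Mlf1 (1.13, adjusted p = 0.00255) and Sntn (just over 1, adjusted p = 0.00564) were called, Dynlrb2 in 3, Mlf1 in 5 and Sntn in 2 of the 6 fits that left out a library. Sntn, a protein of the ciliary tip, was 12.1, 12.9 and 15.3 CPM in con_6w and 19.3, 27.6 and 33.6 CPM in 75Gy_6w. With the exon-length offsets Dynlrb2, Mlf1 and Sntn had 0.67, 0.89 and 0.70, under the fold limit, with adjusted p of 0.017, 0.00618 and 0.0226. Values with these offsets are not given for the other markers that rose, so the part of length in them was not tested. All genes under 2000 exon bases had a median of 0.34 at this dose and time. The marker below 0 at 6 weeks after 75 Gy was Tppp3, with a mean of 332 CPM in con_6w and 271 CPM in 75Gy_6w. At 6 weeks after 65 Gy 9 of the 10 were above 0 as well, with a median of 0.53. None of them passed by adjusted p there, where 7.66% of all genes rose. Between 75 and 65 Gy at 6 weeks no marker passed, nor did any gene of the table. At 2 weeks none of the markers rose at either dose and Tppp3 fell after 75 Gy (-0.76, SE 0.24, adjusted p = 0.0342). The summed level of the 10 markers was 465 to 709 CPM in con_2w and 349 to 556 CPM in 75Gy_2w, and 555 to 616 CPM in con_6w and 591 to 804 CPM in 75Gy_6w. Of 8 secretory markers, 2 fell after 75 Gy at each time, where 10.5% of all genes fell at 2 weeks and 18% at 6 weeks. The list was mixed at 6 weeks: 4 of the 8 were above 0, with a median of -0.05, although none rose by adjusted p. The club cell gene Cyp2f2 was 2650, 2650 and 3240 CPM in con_6w and 1100, 1020 and 1490 CPM in 75Gy_6w, a change of -1.24 on the log2 scale (SE 0.29, adjusted p = 0.00454), and Scgb1a1 had -0.69 (SE 0.21, adjusted p = 0.0187). After 65 Gy, 1 of the 8 secretory markers fell at 2 weeks, where 4.29% of all genes fell, and 0 at 6 weeks. The summed level of the 8 was 16500 to 20300 CPM in con_2w, 10400 to 13700 in 65Gy_2w and 6570 to 13700 in 75Gy_2w. At 6 weeks it was 17700 to 21600 CPM in con_6w, 13900 to 14000 in 65Gy_6w and 10100 to 14500 in 75Gy_6w. The part of these markers in the axoneme values was not tested.

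The other protein groups of the cilium were counted by adjusted p, which 18% of all genes passed in each direction at 6 weeks after 75 Gy. All genes of at least 10000 exon bases had a median log2 fold change of -0.33 there, and those under 2000 bases 0.34. Apart from Dynlrb2, no values with exon-length offsets are given for these groups, so the part of length in their changes was not tested. At that dose and time, 3 of 10 dynein intermediate and light chain genes rose and none fell, led by Dynlrb2 and Tctex1d4 (0.82, SE 0.18, adjusted p = 0.00329). Of 5 docking complex genes of the outer arm, 1 rose, Efcab1 (0.75, SE 0.21, adjusted p = 0.0112). Of 11 preassembly factors, 2 rose, Ccdc103 (0.84, SE 0.22, adjusted p = 0.00824) and Pih1d2 (0.85, SE 0.25, adjusted p = 0.016). Of 12 genes of the nexin-dynein regulatory complex and the ruler, 1 rose, Iqcg (0.66, SE 0.22, adjusted p = 0.0304). Of 8 further central pair genes, 2 fell, among them Hydin, a very large central pair protein (-0.79, SE 0.29, adjusted p = 0.0478), and Spef1 (-0.38, SE 0.13, adjusted p = 0.0381). In 23 genes of intraflagellar transport, the traffic that builds every cilium, 5 rose and 2 fell, with Ift74 (0.77, SE 0.15, adjusted p = 0.00152) and Dync2li1 (0.60, SE 0.12, adjusted p = 0.00186) having the smallest p. None of these lists had a called gene at 2 weeks or after 65 Gy. By adjusted p alone, Ttc21b fell at 2 weeks after 65 Gy (-0.40), and Tctex1d4 (0.63) and the doublet gene Nme7 (0.66) rose at 6 weeks. After that dose 4.29% of all genes fell at 2 weeks and 7.66% rose at 6 weeks. At 2 weeks after 75 Gy the genes that passed were Pih1d1 (0.31) and Ribc2 (0.76) higher and Spef1 (-0.40), Ift172 (-0.31) and Ttc21b (-0.39) lower. Of all genes, 11.8% rose and 10.5% fell there. In the remaining marker lists at 6 weeks after 75 Gy, no basal or mesothelial gene passed, 1 alveolar type 2 gene rose and 1 fell, 3 of 5 alveolar type 1 genes fell, 2 of 4 pan-epithelial genes rose and 1 fell, and 3 of 4 macrophage genes rose. At 6 weeks after 65 Gy 3 of 4 mesothelial genes fell, where 7.01% of all genes did. The summed level of these 4 ran from 21.6 to 78.9 CPM in con_6w and from 12.7 to 19.4 CPM in 65Gy_6w.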

How the data were processed

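The authors trimmed paired reads of stranded poly(A) libraries with Trimmomatic, aligned them with HISAT2 to GRCm38.p6 and estimated gene expression with StringTie; they deposited raw counts per gene, without normalization. How whole-number counts were taken from StringTie is not given in the sources used here. Nothing says that libraries of a group came from separate animals, so p-values measure the spread between these libraries. A further library of 65Gy_6w was not analysed here.

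From the counts, genes were kept with filterByExpr (minimum count 10, total 15; 22052 of 45777), scaled by TMM and fitted in edgeR 4.0.16 (R 4.3.3) by quasi-likelihood with 1 coefficient for each of 6 groups over all 17 libraries. p-values were Benjamini-Hochberg adjusted over all genes tested in each of 9 comparisons, and SE is the log2 fold change divided by the root of F. Calls needed an adjusted p up to 0.05 and a log2 change of 1 or more. DESeq2 1.42.0 and edgeR's exact test were alternatives. The code was tested on simulated data. Exon length is the union of exons in GENCODE vM21, known for 19586 tested genes and all 60 axoneme genes. The offsets for exon length subtract, per library, a lowess curve of the log2 CPM deviation from the gene's mean (prior count 2) over log2 length.

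The genes, gene lists and roles were chosen with earlier results of these data known. Genes are named when called, when among the 3 most counted of their family, when among the 3 highest or lowest log2 fold changes against controls, or when at 0 throughout, and roles as groups; list genes when called or of the 2 smallest p after 75 Gy. Dnah7c and genes that passed by adjusted p alone were named after their values were seen. Libraries are identified by the number in their label. Total counts ranged from 46764569 to 66797879. Counting floors cover counting error only.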

Additional observations from a re-analysis of the deposited data

Results flagged for a closer look

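The effect of 75 Gy on Mcidas at 6 weeks differed from its effect at 2 weeks by -4.29 on the log2 scale (adjusted p = 0.00559 by edgeR's quasi-likelihood test of the difference of both effects): every irradiated library was above its controls at 2 weeks and under them at 6 weeks. Mcidas was 0.0656, 0.177 and 0.128 CPM in 75Gy_6w, beside a counting floor of 0.0443 to 0.0642 CPM, so the size of the difference rests on few counts. Groups of 2 or 3 libraries are too small for a test of single outlying libraries, so none was made.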

How the results depend on the processing

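No paired analysis was possible because the labels number every library apart and groups share no number. The number of axoneme genes called at 75 Gy and 6 weeks was 2 and became 1 with at least 10 counts in every library or with only the libraries compared, and 16 by adjusted p alone; without single libraries it was 1 to 3 (1 without 3136, 3142 or 3143, and 3 without 3141). At 2 weeks it was 0 and became 1 after 65 Gy with only the libraries compared, by the exact test and by DESeq2. After 75 Gy at 2 weeks it became 1 by the exact test, by DESeq2 and with exon-length offsets (an alternative chosen after the data were seen), 2 by adjusted p alone, and 0 to 1 without single libraries (1 without 3132). After 65 Gy at 6 weeks it was 0 and became 1 by DESeq2, 3 by adjusted p alone and 0 to 1 without single libraries (1 without 3135). The other 5 comparisons stayed at 0 in all fits. The median log2 fold changes moved by less than the pooled SD of 0.21 in each fit, with ranges without single libraries of 0.05 to 0.32, -0.13 to 0.15, 0.02 to 0.16 and -0.12 to 0.12 for 65 and 75 Gy at 2 weeks and 65 and 75 Gy at 6 weeks. Group sums of CPM moved by less than their SD with RLE or upper-quartile factors. Of 431 single-gene values under alternatives, 93 no longer passed and 0 reversed. The cause of these changes was not tested, except that fewer libraries or genes enter some fits.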
